A study of Homo sapiens with 6 samples.

Results

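The genes described here encode the anaphase-promoting complex and the proteins that act with it at the onset of anaphase. The set named 10 genes: the coactivators CDC20 and FZR1, the inhibitor FBXO5, the ubiquitin-conjugating enzymes UBE2C and UBE2S, securin (PTTG1), separase (ESPL1) and the complex subunits CDC27, CDC16 and ANAPC10. Members were all probe sets of the array whose only gene symbol was one of these; the genes themselves were picked with earlier results of these arrays known. This gave 26 probe sets for 9 of the 10 genes, out of 18132 genes and 44988 probe sets with 1 symbol. PTTG1 had none, because the single probe set that lists it also lists PTTG3P, so it is not described further.

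The anaphase-promoting complex is a ubiquitin ligase that marks mitotic proteins for the proteasome. CDC20 directs it to securin and the B cyclins once all chromosomes are attached to the spindle, FZR1 takes over from late mitosis into G1, and FBXO5 holds it inactive in S and G2 phase. UBE2C places the first ubiquitins on a substrate and UBE2S lengthens the chain. The loss of securin frees separase, which cleaves cohesin so that sister chromatids part.

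Expression was measured on 6 single-colour Affymetrix arrays, with total RNA from 786-O cells, an established human line derived from a renal cell carcinoma. The control group, shNC, held a non-targeting hairpin (3 arrays), and the shERCC6L group held a hairpin against ERCC6L, the DNA translocase PICH that binds chromatin threads in anaphase (3 arrays). The labels name a lentivirus as the carrier of the ERCC6L hairpin and repeat this for the controls; they give no time after infection, no number of hairpins and no word on separate cultures. The p-values therefore reflect only array-to-array spread, possibly technical. ERCC6L gave signals of 240, 244 and 261 in shNC against 97.6, 97.5 and 97.8 in shERCC6L. Array medians lay between 60.04 and 61.56 in signal.

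Cell type markers were read as a check of the label. The renal lineage gene PAX8 had signals of 387 to 398 in shNC and 485 to 523 in shERCC6L, and all 9 renal markers measured lay at or above the all-gene median, 3 of them higher and 3 lower in shERCC6L. The leukocyte gene PTPRC, the dimmest of 4 measured, averaged 7.31 in shNC and 7.21 in shERCC6L, under the lower quartile of every array. Of 5 endothelial markers, 0 reached the all-gene median level. Their summed signal was 228 to 236 in shNC and 220 to 230 in shERCC6L. In limma's test 0 of the 5 passed (0 also at an unadjusted p under 0.05), which compares the groups and does not speak to presence. The summed signal of 4 leukocyte markers was 166 to 186 in shNC and 195 to 204 in shERCC6L, with CD68 the 1 member that passed, higher. CD68 made up most of that sum, averaging 127 in shNC and 152 in shERCC6L, above the all-gene median. The summed signal of 5 fibroblast markers was 159 to 169 in shNC and 138 to 143 in shERCC6L, with COL1A1 the 1 that passed, lower. Their part in the results was not tested.

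Transcripts of 5 of the 9 measured members were higher in shERCC6L: CDC20, UBE2C, UBE2S, ESPL1 and CDC27. ANAPC10 was lower, and FZR1, FBXO5 and CDC16 did not pass the threshold, an adjusted p of 0.05 in limma over all 18132 genes. Each gene was read through its brightest probe set, and changes are given on the log2 scale of signal plus 16. They were moderate, from 0.47 for CDC20 to -0.34 for ANAPC10, with a median of 0.21 over the 9 genes. That median is the value of ESPL1, which was 0.06 with its probe sets averaged. Of all genes, 18.2% were higher and 13.4% lower, with a median of -0.01. Bright genes were called more often. Of the brighter 9066 genes, those with at least the median level, which include 8 of the 9 members, 32.8% were higher and 19.6% lower, with a median of 0.04 (36.3% and 22.0% in a fit limited to them). The arrays hold RNA of a whole culture, so more cells in mitosis and more of a transcript per cell cannot be told apart.

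**Figure D1:**
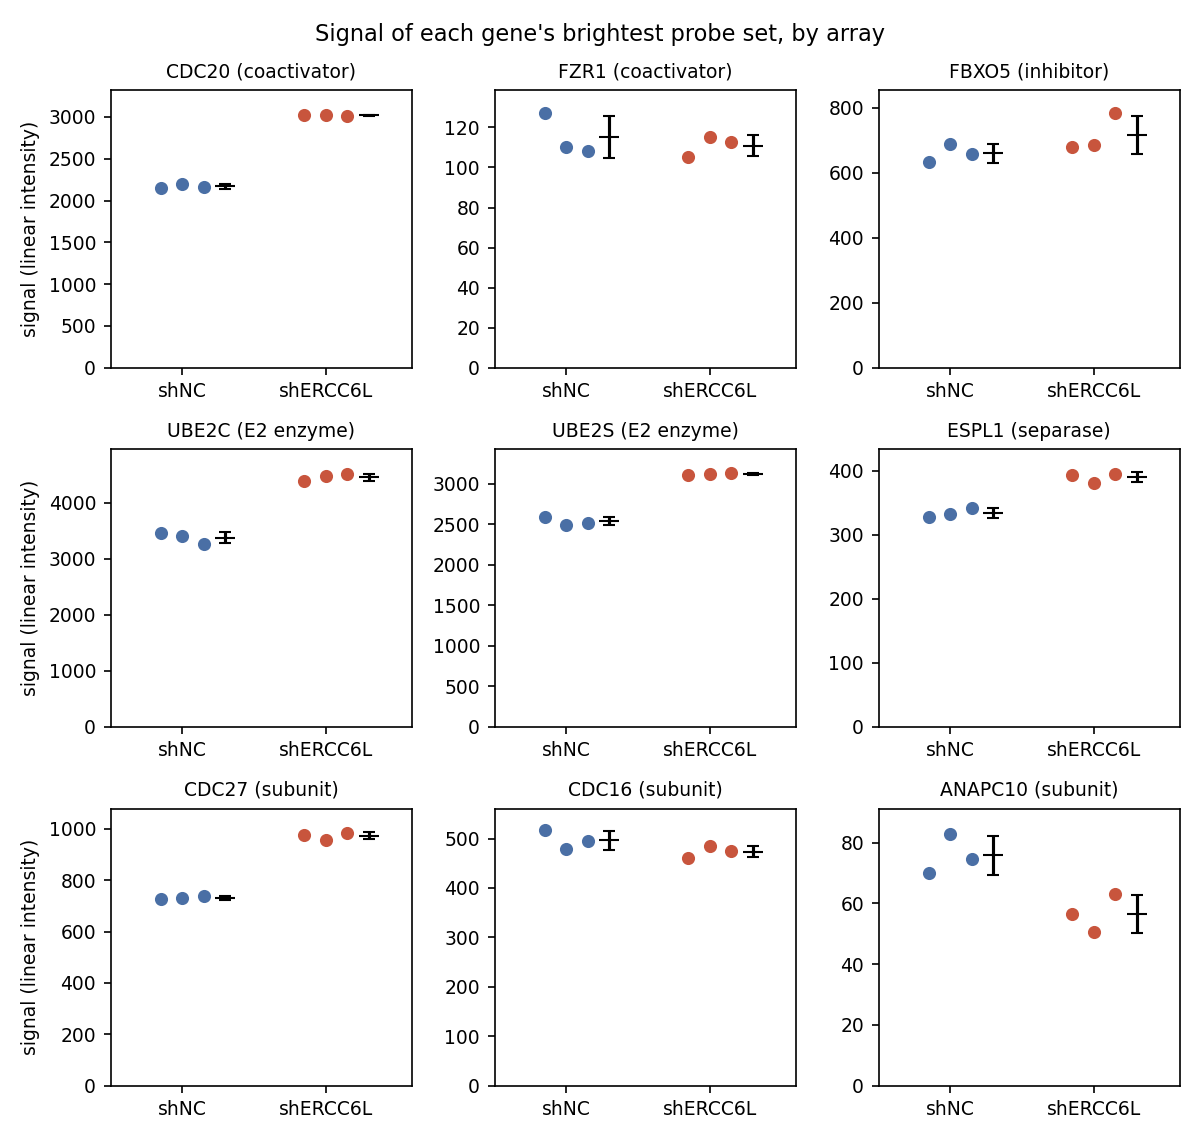
Signal (linear intensity, axis from 0) of each measured member's brightest probe set on every array, with the group mean and SD (n = 3) beside the points. CDC20, UBE2C, UBE2S, ESPL1 and CDC27 had all shERCC6L arrays above all shNC arrays, ANAPC10 all below, and FZR1, FBXO5 and CDC16 overlapped.

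Among the 26 probe sets, 14 were higher and 1 was lower, where 17.0% of all 44988 probe sets were higher and 12.0% lower in the same fit. The groups did not overlap for 17 of them, 14 with shERCC6L on top and 3 with shNC on top. Over all probe sets the shares without overlap were 22.5% and 18.8%. Most of the 26 sets stand above the median level of all probe sets, and the shares at that level were not counted. All 4 sets of UBE2C and all 5 of CDC27 are among the 14, so several of these sets read the same gene. An Affymetrix suffix of s_at or x_at marks a probe set with probes that can match other sequences. Without those, 8 of 18 member probe sets were higher and 1 lower. The share among all probe sets without these suffixes was not counted, and the shares above cover every suffix.

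**Figure D2:**
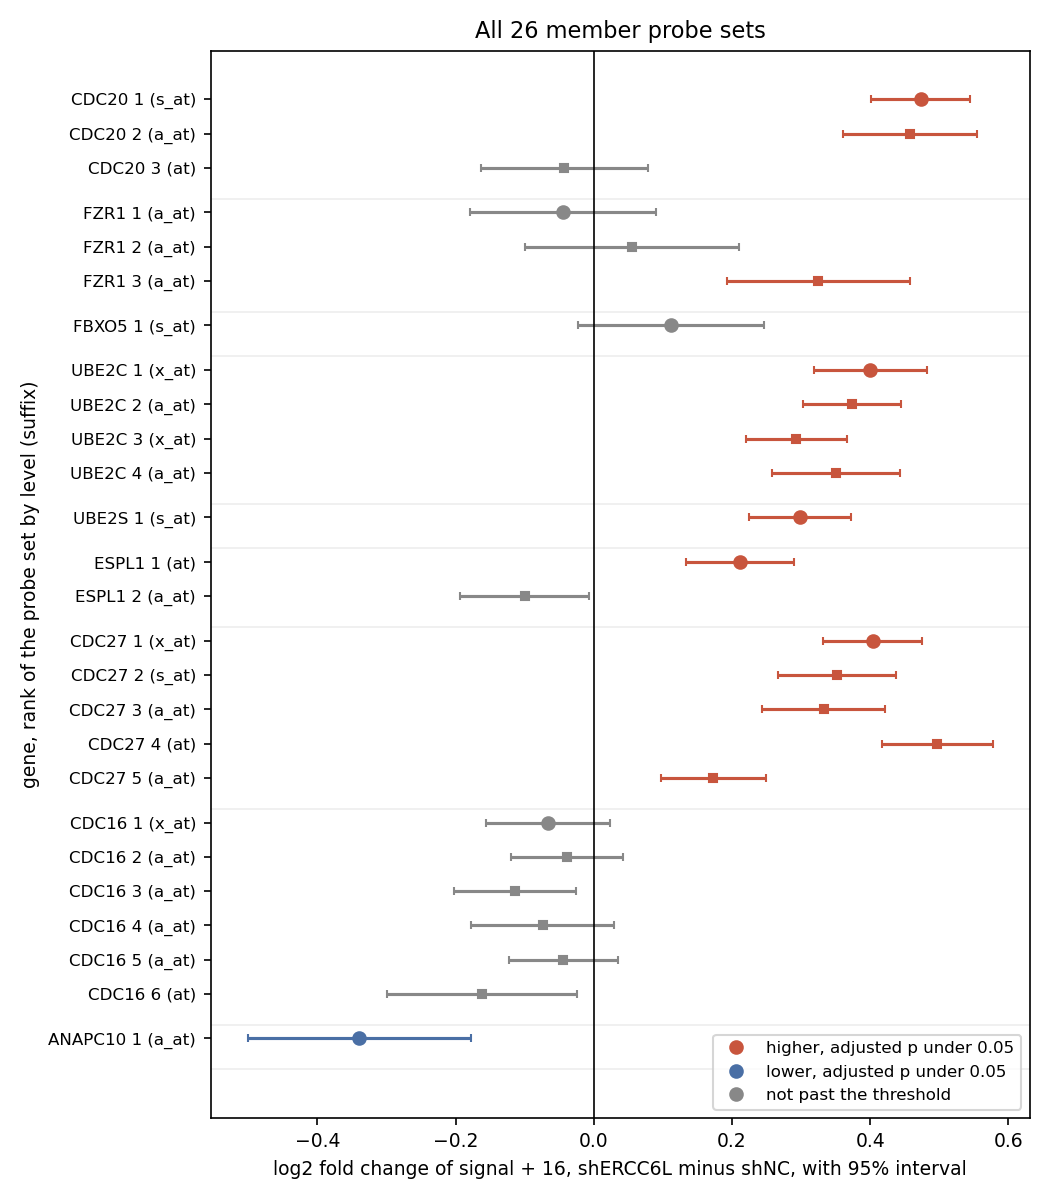
Log2 fold change (shERCC6L minus shNC, signal plus 16) of all 26 member probe sets with limma's 95% interval, numbered within a gene from the highest level down, circles marking the brightest. All 4 sets of UBE2C and all 5 of CDC27 lie to the right of 0, while the sets of CDC20, FZR1 and ESPL1 fall on both sides of the threshold.

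The stretch just before the transcription start is shown for members that were higher and have an entry in the promoter table, because genes of G2 and M phase often share short elements there. UBE2C was higher but has no entry. Sequences are from RefSeq (GRCh38.p14), 150 bases up to the base before the start, 5′ to 3′ on the gene's strand. Capitals mark TTTGAA, the core of the cell cycle genes homology region, and CCAAT, either of them on both strands (TTCAAA and ATTGG when read from the other strand).
CDC20, chr1:43358831-43358980, + strand: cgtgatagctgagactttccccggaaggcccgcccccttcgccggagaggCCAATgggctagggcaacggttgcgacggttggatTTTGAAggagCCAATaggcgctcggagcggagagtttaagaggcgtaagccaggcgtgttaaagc
ESPL1, chr12:53268149-53268298, + strand: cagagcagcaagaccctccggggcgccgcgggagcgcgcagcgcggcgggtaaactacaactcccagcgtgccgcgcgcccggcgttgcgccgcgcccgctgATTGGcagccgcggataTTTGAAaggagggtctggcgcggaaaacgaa
UBE2S, chr19:55407789-55407938, - strand: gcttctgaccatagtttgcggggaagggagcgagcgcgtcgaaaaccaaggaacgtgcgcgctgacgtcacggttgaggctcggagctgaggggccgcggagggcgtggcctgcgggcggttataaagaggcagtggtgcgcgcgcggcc
CDC27, chr17:47189296-47189445, - strand: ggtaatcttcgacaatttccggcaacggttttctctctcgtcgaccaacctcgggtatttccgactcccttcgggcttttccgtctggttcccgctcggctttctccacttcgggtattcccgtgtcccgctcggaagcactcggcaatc

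In CDC20 the TTTGAA occupied positions -65 to -60 from the start and stood between CCAAT at -100 to -96 and at -55 to -51, with a reversed TTTGAA farther out at -178 to -173. ESPL1 had TTTGAA at -31 to -26 with a reversed CCAAT at -48 to -44. UBE2S and CDC27 had neither within the printed stretch, though a reversed CCAAT lay farther out in each. Over the whole window of 300 bases, 250 before and 50 after the start, TTTGAA was in 15.2% of the 35093 promoters of the table and CCAAT in 34.6%. A variant, TTCGAA, was in 1.45% and in 0 of the 13 promoters listed for 8 measured members. TTTGAA or TTCGAA together with CCAAT stood in a promoter of 3 of these 8 genes (CDC20, ESPL1 and the second start of FBXO5), of 14 of 18 genes in a list of G2 and M phase transcripts and of 7.37% of 14425 measured genes. TTTGAA alone was in a promoter of 5 of the 8 genes against 15.9% of the measured genes: CDC20 and ESPL1, which were higher, FZR1 and FBXO5, which did not pass, and ANAPC10, which was lower. In FZR1 it was only at the first of 2 starts, and in ANAPC10 only at the last of 4. These matches are descriptions of letters.

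The coactivators differed in their calls. CDC20 had signals of 2151, 2203 and 2156 in shNC and of 3020, 3025 and 3008 in shERCC6L. The 3 knockdown arrays lay within a narrow range well above the controls. The means were 2170 ± 28.9 in shNC and 3018 ± 8.70 in shERCC6L (SD, n = 3 each). The change was 0.47 ± 0.03 on the log2 scale (limma, SE, adjusted p = 8.1e-06), and it ranked 299 from the top among all genes. Its second probe set, at 1019 to 1090 in shNC and 1398 to 1514 in shERCC6L, rose by 0.46. The third was dim, at 26.5 to 28.6 and 23.9 to 29.8, and gave -0.04 (adjusted p = 0.63 over all probe sets), although the annotation names the same transcript record for it as for the second. With the 3 sets averaged, the change in CDC20 was 0.30 (adjusted p = 2.9e-05).

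FZR1 read 127, 110 and 108 in shNC and 105, 115 and 113 in shERCC6L on its brightest probe set, so the groups overlapped. The log2 fold change was -0.04 with a 95% interval of -0.18 to 0.09, and it did not pass (adjusted p = 0.63). The next set, at 89.8 to 109 and 98.8 to 113, overlapped as well. The third and dimmest FZR1 set was higher on every shERCC6L array: it read 40.2, 41.2 and 34.4 against 54.4, 54.4 and 48.3, a log2 fold change of 0.33 ± 0.06 (adjusted p = 0.003 over all probe sets). The annotation names a different transcript record for each of the 3 sets. With the sets averaged FZR1 stood at 0.11 (adjusted p = 0.066), and without shNC replicate 1 the brightest set gave 0.02.

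FBXO5, which blocks the complex through its zinc-binding region and its own degradation signal, read 633, 690 and 658 in shNC and 679, 685 and 783 in shERCC6L. Only shERCC6L replicate 3 lay above all controls. The log2 fold change was 0.11 with an interval of -0.02 to 0.24 (adjusted p = 0.19), and 0.05 without that array. Its single probe set has the suffix s_at. Of 8 genes that act on FBXO5, its transcription (E2F1) or the stability of its protein, 1 was higher and 1 lower. These 8 all stand at or above the median level, where 32.8% of genes were higher and 19.6% lower. PLK1 was higher by 0.26 ± 0.04. CUL1, the scaffold of the ligase that degrades FBXO5, was lower by 0.16 (log2 fold change -0.16 ± 0.04, adjusted p = 0.015). The CUL1 call was lost without shNC replicate 1 (adjusted p = 0.0571), shNC replicate 3 (0.0582), shERCC6L replicate 1 (0.0515) or shERCC6L replicate 2 (0.0556). EVI5, which protects FBXO5 from degradation, stood at -0.12 (adjusted p = 0.061) but passed with quantile normalization (0.0369), the filter at the median level (0.0337), array weights (0.0258) and without shERCC6L replicate 1 (0.0231). The lower count of this list ran from 0 to 3 over the alternatives, and its median was -0.05.

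Both ubiquitin-conjugating enzymes were higher. UBE2C gave 3457, 3398 and 3260 in shNC but 4382, 4476 and 4503 in shERCC6L, with no overlap. Its log2 fold change was 0.40 ± 0.04 (1.32-fold, adjusted p = 4.2e-05). All 4 UBE2C sets passed, from 0.29 to 0.40, and the pair without an x_at suffix gave 0.37 and 0.35. UBE2S read 2587, 2493 and 2519 in shNC and 3100, 3124 and 3131 in shERCC6L. Again every knockdown array was above every control, by 0.30 ± 0.03 (1.23-fold, adjusted p = 1.3e-04), on a single set with the suffix s_at.

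Separase was measured by a bright and a dim probe set that did not move alike. The bright ESPL1 set read 327, 333 and 342 in shNC and 394, 380.5 and 394 in shERCC6L. The groups did not overlap, and the log2 fold change was 0.21 ± 0.03 (adjusted p = 0.0014). The dim set read 17.07, 18.11 and 15.27 against 14.45, 14.10 and 15.25, and its log2 fold change of -0.10 did not pass (adjusted p = 0.11 over all probe sets). With both averaged ESPL1 stood at 0.06 and the call was lost (adjusted p = 0.15).

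Of the member subunits, CDC27, whose repeats bind the tails of the coactivators, was higher. Its brightest set read 727, 729 and 740 in shNC and 976, 959 and 985 in shERCC6L. The controls and the knockdown arrays formed separate, narrow ranges, with a log2 fold change of 0.40 ± 0.03 (adjusted p = 2.2e-05). All 5 CDC27 sets passed, but by different amounts. The fourth by level went from 281 to 300 in shNC to 413 to 418 in shERCC6L, a change of 0.50 ± 0.04, and the fifth from 295 to 301 to 332 to 347, a change of 0.17 ± 0.03.

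CDC16, a scaffold subunit of the same arm, read 516, 478 and 495 in shNC and 462, 485 and 474 in shERCC6L on its brightest set. The ranges overlapped, and the log2 fold change was -0.07 with an interval of -0.16 to 0.02 (adjusted p = 0.26). All 6 CDC16 sets had a negative change, from -0.16 to -0.04, but 0 of them passed limma's threshold and 2 had an unadjusted p under 0.05. Their average was -0.08 and did pass (adjusted p = 0.024).

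ANAPC10, which with the coactivator recognises the destruction box of substrates, was the 1 measured member called lower on brightest probe sets. Its single set read 69.9, 82.9 and 74.6 in shNC and 56.4, 50.5 and 63.0 in shERCC6L. Each knockdown array was below each control, though the set is dim, under the median level of all genes. The log2 fold change was -0.34 ± 0.07 (adjusted p = 0.0049), and -0.21 with a pseudocount of 64 (adjusted p = 0.014).

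Whether partners changed unequally was asked with the log2 ratio of their signals on each array, in which only the difference between groups can be read, since probes differ. For CDC20 over FZR1 the ratio was 3.92, 4.14 and 4.13 in shNC and 4.65, 4.53 and 4.56 in shERCC6L, a difference of 0.52. The shERCC6L arrays were all higher, but 3 against 3 arrays cannot go below p = 0.1 in the 2-sided exact permutation test, which was the value reached (0.15 adjusted over 3 ratios). With probe sets averaged the difference was 0.18. UBE2C over UBE2S differed by 0.10 (exact p = 0.1, adjusted 0.15), also without overlap, and by 0.06 with probe sets averaged. FZR1 over FBXO5 differed by -0.16 with overlapping groups (exact p = 0.3), and by -0.06 without shNC replicate 1, -0.10 without shERCC6L replicate 3 and -5.1e-05 with probe sets averaged. The planned ratio of PTTG1 over ESPL1 could not be formed.

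**Figure D3:**
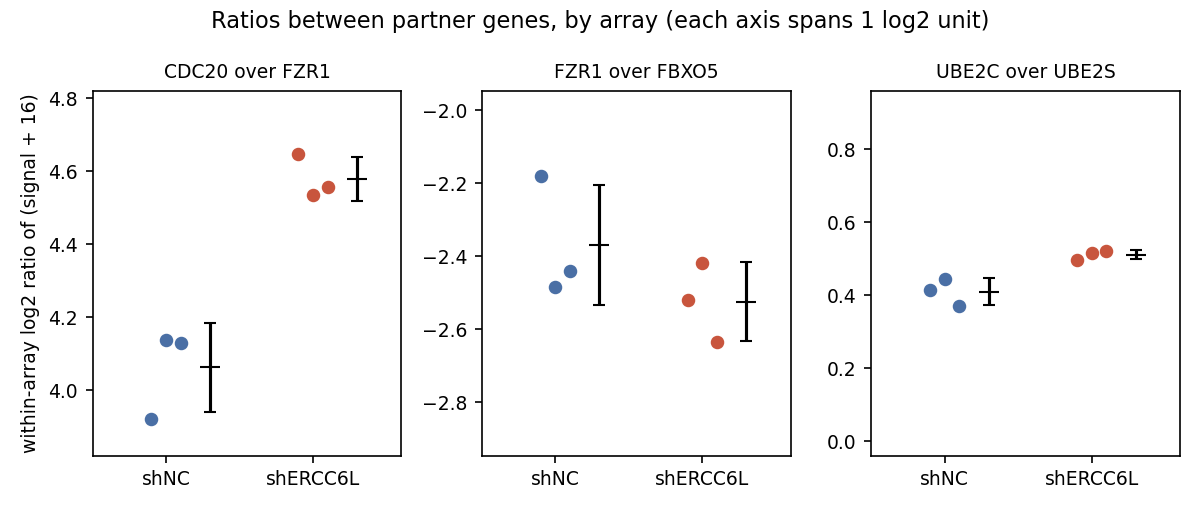
Within-array log2 ratio of (signal + 16) for 3 pairs of partner genes, each array as a point and the group mean with SD (n = 3) beside it; every axis spans 1 log2 unit and does not start at 0. The groups are apart for CDC20 over FZR1 (difference 0.52) and UBE2C over UBE2S (0.10) and overlap for FZR1 over FBXO5.

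Differences between probe sets of a gene were examined in the same way, for 4 pairs picked after their values had been seen. The brightest less the dimmest CDC20 set differed between groups by 0.52, the third less the brightest FZR1 set by 0.37, the bright less the dim ESPL1 set by 0.31 and the fourth less the fifth CDC27 set by 0.32. In each pair the groups did not overlap, at the smallest exact permutation p of 0.1 (also 0.1 adjusted over the 4 pairs). Since the pairs were picked for their contrast, these values are a description only, and by level the dim CDC20 and ESPL1 sets stand at percentiles 33.4 and 22.2 of all probe sets.

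The other 11 subunits of the complex were higher for 5 and lower for 2, with a median log2 fold change of 0.10. The 2 lower became 1 without shNC replicate 3 or shERCC6L replicate 1, with a pseudocount of 1 and with probe sets averaged. CDC26, a small subunit that steadies CDC16, rose from 614 to 659 in shNC to 774 to 842 in shERCC6L, by 0.37 ± 0.05 (adjusted p = 2.6e-04). ANAPC7, a scaffold subunit, rose by 0.32 ± 0.04 and ANAPC4, of the platform, by 0.21 ± 0.04. ANAPC13 and ANAPC1 rose by less, 0.16 and 0.11. ANAPC15, which is needed to release checkpoint proteins from the complex, fell from 351 to 374 to 286 to 316, a log2 fold change of -0.25 ± 0.04 (adjusted p = 0.0021), and ANAPC16 was lower at -0.12. The catalytic pair ANAPC2 and ANAPC11 stood at 0.02 and 0.03, and ANAPC5 and CDC23 at 0.10 and 0.05, none of them past the threshold. Over all 14 subunits, 6 were higher, 3 lower and 5 were not called. These counts lie near the shares of genes at or above the median level, 32.8% higher and 19.6% lower, where 12 of the 14 stand.

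The spindle checkpoint holds CDC20 in an inhibited complex until chromosomes are attached. Of 12 genes listed for this checkpoint, 9 were higher and 0 lower in limma. The higher count ran from 6 to 9 over the alternatives, and from 8 to 9 with an array left out. All 12 stand at or above the median level, where 32.8% of genes were higher and 19.6% lower. Each of the 12 had a change above 0 (median 0.22), so 0 were lower at an unadjusted p under 0.05. TRIP13, the ATPase that takes the inhibited complex apart, rose from 1118 to 1186 in shNC to 1578 to 1680 in shERCC6L, by 0.48 ± 0.04 (adjusted p = 2.8e-05). TTK, the kinase that starts checkpoint signalling, rose by 0.43 ± 0.04 and BUB1 by 0.33 ± 0.04. MAD2L1BP, the partner of TRIP13, rose by 0.21, whereas MAD2L1 itself, at 0.03, did not pass.

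Among 26 genes whose proteins are degraded through the complex, 17 were higher and 2 lower (median 0.20). Of genes at or above the median level, where all 26 stand, 32.8% were higher and 19.6% lower. AURKA rose by 0.57 ± 0.03 (adjusted p = 4.7e-06) on signals of 1363 to 1389 in shNC and 2010 to 2117 in shERCC6L. CDCA3, a trigger of mitotic entry, also rose by 0.57 on its brightest set, but by 0.30 with sets averaged and by only 0.03 on its brightest set without the suffix s_at or x_at (adjusted p = 0.69). CCNB1, whose destruction ends mitosis, rose by 0.23 and GMNN, the inhibitor of replication licensing, by 0.32. HMMR, a spindle protein, fell by 0.60 and the transcription factor gene FOXM1 by 0.39, while CCNA2, at 0.01, did not pass.

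The list around cohesin, which separase cleaves, had 5 higher and 3 lower of 14 (median 0.06), near the 32.8% and 19.6% of genes at or above the median level, where all 14 stand. The ring subunit SMC1A fell from 566 to 612 in shNC to 308 to 335 in shERCC6L, a log2 fold change of -0.85 ± 0.04 (adjusted p = 1.6e-06), and of -0.36 with its probe sets averaged and -0.46 without the suffix s_at or x_at. WAPL, which takes cohesin off chromosomes, fell by 0.71 ± 0.07 (by 0.47 without those suffixes) and STAG1 by 0.47. SGO2, which shields cohesin at centromeres, rose by 0.49 ± 0.04, and SGO1 and CDK1, whose kinase inhibits separase, by 0.24 and 0.33. RAD21, the subunit that separase cuts, stood at -0.14 and did not pass (adjusted p = 0.26).

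Genes that peak in G2 and M phase were read beside the members. Of 20 such genes outside the set, 15 were higher and 3 lower (HMMR, ASPM and KIF20A), with a median of 0.24, against the 32.8% and 19.6% of genes at that level. Their summed signal was 24673 to 25294 on the shNC arrays and 28916 to 30465 on the shERCC6L arrays. MKI67, a proliferation marker, rose by 0.48 ± 0.04, and by 0.14 with its probe sets averaged. Of 18 genes that peak in G1 and S phase, 10 were higher and 1 lower, with a median of 0.15 and summed signals of 18849 to 19369 and 19600 to 20592. Here RRM2 rose by 0.38 ± 0.03, CCNE2 by 0.55 ± 0.05 and CDC45 by 0.34 ± 0.04. The lists overlap, with AURKA, PLK1, HMMR and CCNB1 among the genes that stand in more than 1 of them. Whether the cell cycle composition of the cultures took part in the members' changes was not tested.

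**Figure D4:**
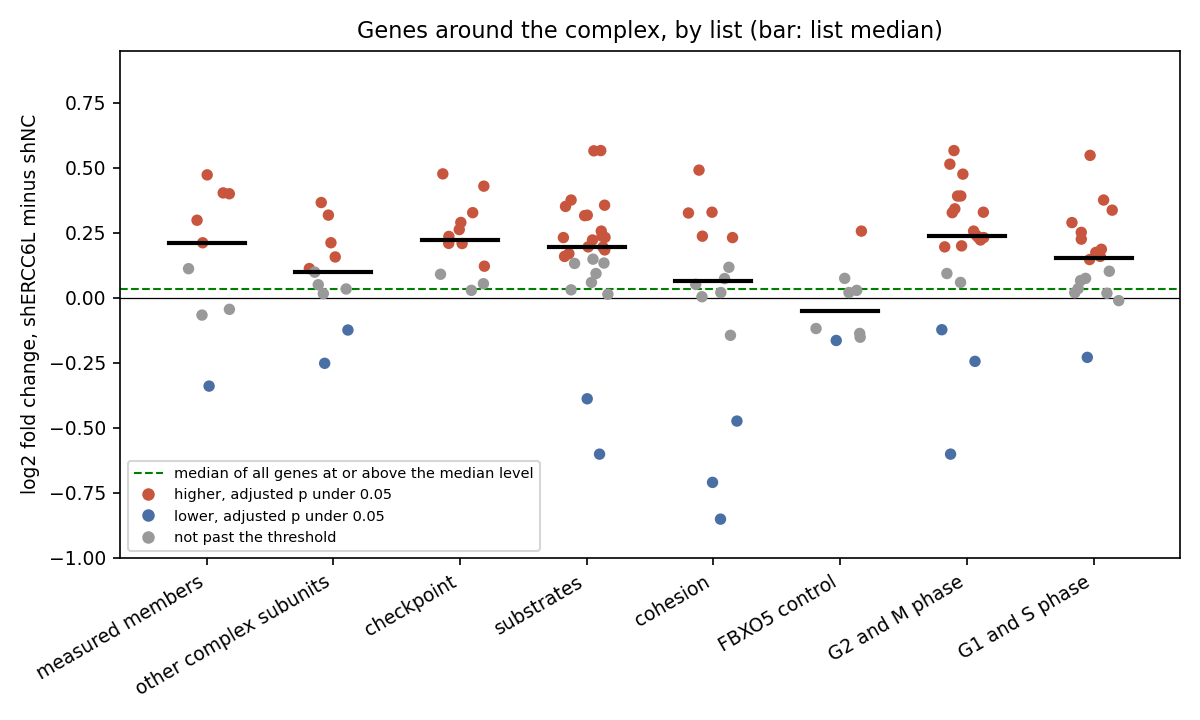
Log2 fold change (shERCC6L minus shNC) of each measured gene in the member set and in 7 lists around it, coloured by limma's call, with a bar at the list median and a dashed line at the median of the brighter 9066 genes (0.04). The checkpoint, substrate and G2 and M phase lists have medians of 0.22, 0.20 and 0.24, near the members' 0.21. These lists share genes, so their medians are not separate readings.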

How the data were processed

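The deposited table held 1 linear intensity per probe set and array for 49395 probe sets, none below 0. Per the submitters' processing notes the authors used Affymetrix Expression Console; for its version, background correction and normalization, the sources used here give nothing. Of the probe sets, GEO's platform annotation gave 1 symbol to 44988, several to 1832 and none to 2473, with 102 controls set apart, and 44961 matched RefSeq gene numbers, with 0 symbols changed. The table holds no detection calls, and precision is limited by the number of arrays.

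Intensities were transformed to log2(signal + 16), which understates the change of dim genes. The brightest single-symbol probe set stood for each gene. The 2 groups were tested in R 4.3.3 with limma 3.58.1 (lmFit, eBayes, 2-sided, 4 residual degrees of freedom, Benjamini-Hochberg over all 18132 genes, or over all 44988 probe sets for a single probe set). The fit was tested on simulated data. It recovered 62% of log2 changes of 0.25, 94% of those of 0.5 and 100% of those of 1 and 2. Smaller changes were not simulated, so a gene that did not pass may still have changed. Same-numbered arrays were not treated as pairs.

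The members and the gene lists were chosen with earlier results of these data known. Named genes were ERCC6L, the members and the 3 genes of each list with the smallest p; other list genes and the 4 pairs of probe sets were picked after their values were seen. Alternatives were quantile normalization, a replicate block, pseudocounts of 1 and 64, median centring, array weights, a filter at the median level, robust estimation with an intensity trend, averaged probe sets, each array left out and, added after the data were seen, probe sets without the suffix s_at or x_at. Sequences came from RefSeq's GRCh38.p14 promoters, with entries for 8 measured members.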

Additional observations from a re-analysis of the deposited data

How the results depend on the processing

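The 5 higher members numbered 4 to 5 under every alternative run, falling to 4 when probe sets were averaged (ESPL1 lost) and without the suffixes s_at and x_at, where UBE2S had no set left. The 1 lower member became 0 with the filter at the median level, which removes ANAPC10, and 2 with probe sets averaged, where CDC16 joined. Lower member probe sets went from 1 to 2 with quantile normalization, a pseudocount of 64 or array weights. They ranged from 1 to 2 when an array was left out. They numbered 3 when probe sets were filtered at their own median level, a filter that keeps the ANAPC10 set. FZR1, which did not pass, changed sign to 0.11 with probe sets averaged and ran from -0.0823 to 0.0203 over arrays left out; its second set ran from -0.0178 to 0.102. The other causes were not tested. With a replicate block the members stayed at 5 higher and 1 lower and their probe sets at 14 and 1. The correlations of same-numbered arrays' deviations were 0.24, -0.14 and -0.01. With 3 arrays per group, these values cannot settle whether the numbers pair the samples. The dim sets of CDC20, ESPL1 and FZR1 had the lowest mean signals among the member probe sets. The background level is unknown here, and its part in their values was not tested.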
